A study of Mus musculus with 6 samples.

Results

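Metabotropic glutamate receptors and GABA-B receptors are the slow, G-protein-coupled receptors for the brain's main excitatory and main inhibitory transmitter. The 8 genes described here are Grm2, Grm3, Grm4, Grm5, Grm7, Grm8, Gabbr1 and Gabbr2, and their values were taken from every array probe set whose only annotated gene symbol is 1 of them. Such probe sets were found for 7 of the 8, 13 in all, among 45101 probe sets and 18193 genes with a single-symbol probe set, and Gabbr2 was not analysed here. All 7 were among the 10581 genes tested.

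RNA came from midbrain and brainstem, with the cerebellum removed, of adult mice of both sexes aged 6 to 12 weeks. Every animal was of the Slc6a4 JD60 line on a mixed FVB and c57/bl6j background, a bacterial artificial chromosome transgenic line in which regulatory sequence of the serotonin transporter gene directs tagged ribosomes to serotonin neurons. The IP group held 3 samples of RNA affinity-purified with those ribosomes (TRAP, translating ribosome affinity purification), while the 3 samples of the unbound group hold what the purification left behind, standing for the whole tissue. Each sample pooled 5 mice, and 20 ng of its total RNA was amplified in 2 cycles and hybridised to 1 Affymetrix array. IP and unbound RNA differ in cell type and in ribosome binding at once, so these cannot be told apart. Nor can fewer cells of a type and less RNA per cell in any difference given below.

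Metabotropic glutamate receptors fall into 3 groups. Group I, here Grm5, couples through Gq to phospholipase C and is mostly postsynaptic. Group II, Grm2 and Grm3, and group III, Grm4, Grm7 and Grm8, couple through Gi/o to lower cyclic AMP and mostly restrain transmitter release. Grm3 and Grm5 are also known from astrocytes. The GABA-B receptor is an obligate pair of Gabbr1, which binds GABA, and Gabbr2, which couples to Gi/o. In serotonin neurons, GABA-B receptors are known to open inwardly rectifying potassium (GIRK) channels.

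The promoters of Gabbr1 and Grm3 are shown because these 2 genes stand near opposite ends of the receptors' changes. Each is the 250 bases before the annotated start in RefSeq, build GRCm38.p6, read 5′ to 3′ on the gene's strand, with matches to 4 searched motifs in capitals: the GATA core GATAA, the GC box GGGCGG, the cyclic AMP response element TGACGTCA and the TATA box TATAAA, on both strands. Those motifs share no match with each other here.
Gabbr1, chr17:37045716-37045965, plus strand: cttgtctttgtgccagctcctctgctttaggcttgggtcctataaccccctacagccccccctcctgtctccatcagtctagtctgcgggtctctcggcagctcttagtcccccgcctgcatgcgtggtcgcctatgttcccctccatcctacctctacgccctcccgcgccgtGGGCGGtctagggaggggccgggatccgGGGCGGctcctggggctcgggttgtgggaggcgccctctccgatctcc
Grm3, chr5:9725353-9725602, minus strand: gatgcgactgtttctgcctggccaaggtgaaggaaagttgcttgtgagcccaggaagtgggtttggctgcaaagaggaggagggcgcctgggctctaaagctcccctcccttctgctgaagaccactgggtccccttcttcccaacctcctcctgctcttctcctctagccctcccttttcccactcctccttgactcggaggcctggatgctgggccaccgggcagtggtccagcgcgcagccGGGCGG
The Gabbr1 window held 2 GC boxes and the Grm3 window held 1, a motif found in 32.7% of the 32851 promoter windows of this length. Neither window held the GATA core (22.6% of windows), the cyclic AMP response element (1.55%) or the TATA box (12.4%). Both were GC-rich, at 66.0% for Gabbr1 and 62.4% for Grm3 against a median of 52.4%, with 16 and 8 CpG dinucleotides against a median of 6. RefSeq windows were also held for Gabbr2, Grm2, Grm7 and Grm8.

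All levels below are deposited log2 values with -0.23 added on the IP arrays, the offset that aligns the biotinylated hybridisation controls of the 2 groups. A log2 value of 5 is called the detection limit. A gene was called, and is said to have risen or fallen, where limma's adjusted p was under 0.05 over all tested genes and the change was at least 2-fold. Pairs of arrays within a group correlated at Pearson's r of 0.994 or more across probe sets, and pairs across groups at no more than 0.932. The number of arrays limits the precision. The purification itself showed in the serotonin transporter gene Slc6a4, at 14.20 in IP and 9.05 in unbound RNA, and all 9 measured serotonin neuron markers rose. Of the 9, Lmx1b lay under the detection limit on every unbound array. It could be tested only through its IP arrays, which fixed its direction. The 2 groups were normalised separately, so their relative level rests on the scaling. The median change of all tested genes was -0.65, and each receptor's change is read beside that value.

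Of the 7 receptor genes, Grm3, Grm2 and Grm5 fell in IP and none rose by limma. Among all tested genes 41.1% fell and 10.4% rose, so 3 lower of 7 is close to the background. Gabbr1 and Grm4 had higher values on every IP array than on any unbound array, each by less than 2-fold and each with the sign turned when poly-A spikes set the scaling, and these were the 2 genes with a positive change at an unadjusted p under 0.05. The other 5 lay lower on every IP array. Of all tested genes, 23.9% had every IP array above and 59.1% every IP array below. The median change of the 7 was -0.89, and -0.87 with genes below the detection limit in IP counted at the limit. The plot of receptor probe sets by array shows each value.

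**Figure D1:**
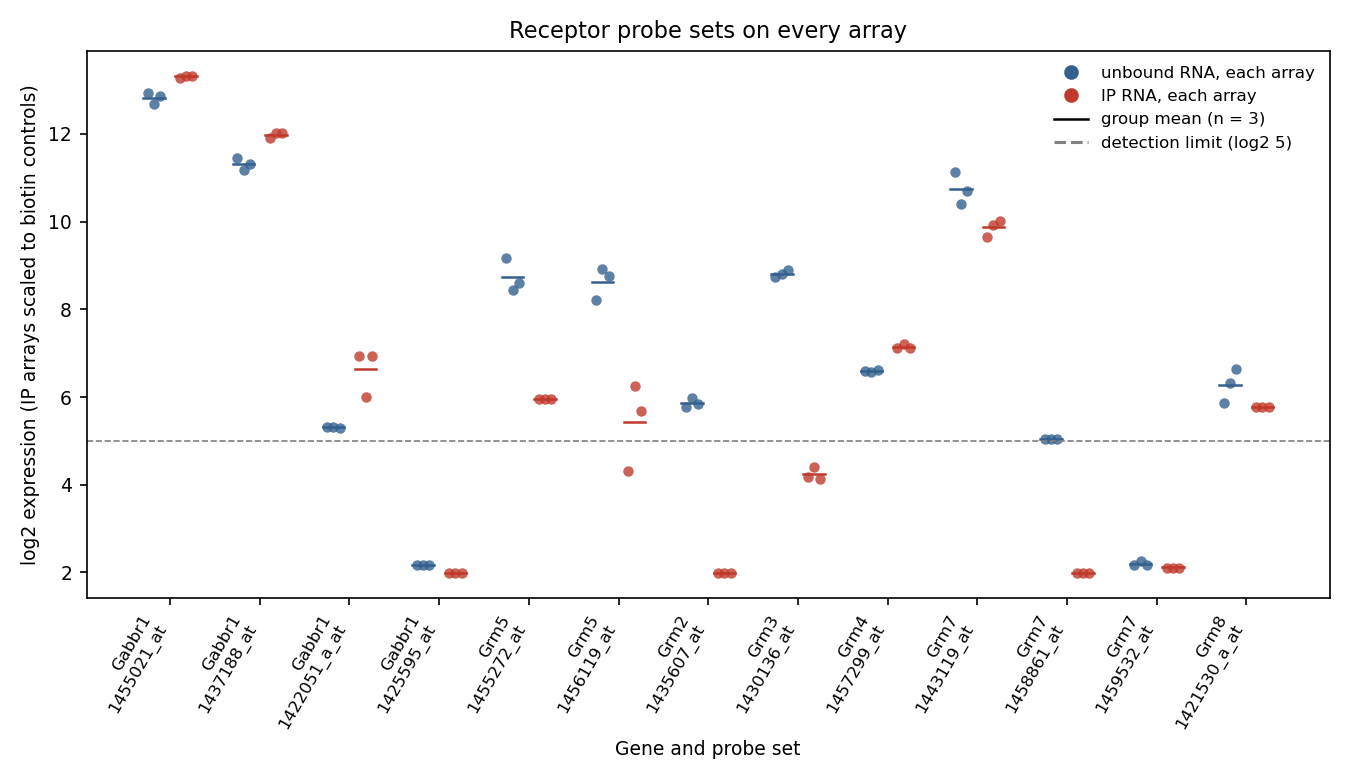
Log2 expression (y axis, IP arrays scaled to the biotin controls) of the 13 receptor probe sets (x axis) on each of 3 unbound arrays (blue) and 3 IP arrays (red), with group means as bars and the detection limit of 5 as a dashed line. The Grm3 and Grm2 probe sets lie above the limit in unbound RNA and below it on all 3 IP arrays, while 3 Gabbr1 probe sets and that of Grm4 lie higher in IP.

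Gabbr1 encodes the GABA-binding subunit of the GABA-B receptor. Its brightest probe set, 1455021_at, read 13.28, 13.33 and 13.33 on the IP arrays and 12.93, 12.68 and 12.86 on the unbound arrays. All IP values lay above all unbound values, and both groups were far above the detection limit. The change was 0.49 ± 0.09 SE, or 1.40-fold, with a 95% interval of 0.27 to 0.71 (limma, adjusted p = 0.00294), which is under the 2-fold limit and was not called. In rank, 80.2% of tested genes had a change no higher than that of Gabbr1.

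The other Gabbr1 probe sets gave the same direction where they were measured. Probe set 1437188_at read 11.90, 12.03 and 12.03 in IP and 11.45, 11.18 and 11.31 in unbound RNA, a change of 0.67 that was not called. Probe set 1422051_a_at read 6.94, 6.00 and 6.94 in IP and 5.31, 5.31 and 5.29 in unbound RNA, and with every probe set tested by itself it was called higher at 1.32 ± 0.27 SE (limma, adjusted p = 0.00455), as were 10.4% of all probe sets so tested. The size of the Gabbr1 difference thus depended on the probe set, from 1.40-fold to 2.50-fold. The fourth, 1425595_at, was at the lowest value on all 6 arrays.

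Grm5 encodes mGlu5, the group I receptor. It fell by 2.79 ± 0.19 SE on the log2 scale, 6.91-fold, with a 95% interval of -3.26 to -2.32 (limma, adjusted p = 3.12e-05). Probe set 1455272_at read 5.96 on each of the 3 IP arrays and 9.18, 8.45 and 8.61 on the unbound arrays. The groups did not overlap, and the IP level stayed above the detection limit. The 3 IP values are identical, so they carry no measure of spread of their own and the error comes from the unbound arrays and from limma's pooling.

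A second Grm5 probe set, 1456119_at, had no identical values and fell too. It read 4.32, 6.26 and 5.69 in IP against 8.22, 8.91 and 8.75 in unbound RNA, a change of -3.21 ± 0.51 SE (limma with every probe set tested by itself, adjusted p = 0.00162), in a test that called 43.0% of probe sets lower. IP replicate 1 lay under the detection limit there, and replicates 2 and 3 lay above it.

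Both group II genes fell below the detection limit in IP. Grm3, which encodes mGlu3, read 4.18, 4.40 and 4.14 on the IP arrays and 8.73, 8.80 and 8.89 on the unbound arrays. Every IP value was under the detection limit and every unbound value was far over it. Counting each dim array at no less than the limit, Grm3 was at least 14.0-fold lower in IP, from group means of 4.24 ± 0.14 and 8.81 ± 0.08 (SD, n = 3; limma, adjusted p = 4.71e-07). That bound already exceeds the 6.91-fold difference measured for Grm5.

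Grm2, which encodes mGlu2, was near the limit even in unbound RNA. It read 5.78, 5.98 and 5.85 there and 1.98, the floor of the scaled IP arrays, on all 3 IP arrays. That makes it at least 1.83-fold lower in IP (limma, adjusted p = 4.54e-07), and the fitted change of -3.89 depends on where the floor lies. Because Grm2 and Grm3 were below the limit on every IP array, they could pass the filter only through the unbound arrays, which fixed their direction. A further probe set naming Grm2 together with Gm28111 was left out.

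None of the group III genes was called. Grm4, which encodes mGlu4, read 7.11, 7.22 and 7.11 in IP and 6.59, 6.57 and 6.62 in unbound RNA. The IP arrays all lay above the unbound ones. The change of 0.55 ± 0.07 SE, or 1.47-fold, had a 95% interval of 0.37 to 0.73 (limma, adjusted p = 6.32e-04) and was not called. It ranked above or level with 81.6% of tested genes, close to the place of Gabbr1.

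Grm7, which encodes mGlu7, a receptor of presynaptic active zones, was readily measured in both fractions. Probe set 1443119_at read 9.66, 9.93 and 10.01 in IP and 11.14, 10.41 and 10.71 in unbound RNA. The groups did not overlap, though the lowest unbound array came within less than 1 log2 unit of the highest IP array. The change was -0.89 ± 0.21 SE, with a 95% interval of -1.39 to -0.38 (limma, adjusted p = 0.00780), and was not called. It reached -1.06 and was called when unbound replicate 2 was left out, a fit that called 41.9% of all tested genes lower, and was -0.69 without unbound replicate 1 and -0.78 without IP replicate 1. Beside the background median of -0.65, the Grm7 change differs by -0.24.

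The other Grm7 probe sets were dim. Probe set 1458861_at read 5.04 on each unbound array and 1.98 on each IP array, so it is at least 1.03-fold lower, a bound near 1, although its fitted change of -3.05 was called (limma with every probe set tested by itself, adjusted p = 5.69e-07). Probe set 1459532_at was under the limit on all 6 arrays. The mean of the 3 probe sets, -1.34, was called lower, as were 36.1% of genes so read, and it includes these 2 dim ones.

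Grm8, which encodes mGlu8, read 5.78 on all 3 IP arrays and 5.87, 6.32 and 6.64 on the unbound arrays. The groups did not overlap, but unbound replicate 1 lay close to the IP value. The change of -0.50 ± 0.19 SE had a 95% interval of -0.98 to -0.02 and did not pass (limma, adjusted p = 0.0532). It was -0.32 without unbound replicate 3 and -0.70 without unbound replicate 1 (limma, adjusted p = 0.119 and 0.00436), and with the replicate pairs as a block its adjusted p was 0.0471, still under 2-fold and not called. Its measured change sat near the middle of all tested genes, with 54.1% at or under it.

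Differences between 2 genes on the same array do not depend on a constant offset between the groups, so they were compared within group III. An offset that varies with level would not cancel, and these differences were not taken after quantile normalisation. The changes of Grm4, Grm7 and Grm8 were then 1.58, -0.52 and 0.74, against 0.55, -0.89 and -0.50 under the biotin scaling. Grm7 minus Grm4 was 2.55, 2.71 and 2.90 in IP and 4.55, 3.84 and 4.09 in unbound RNA, and Grm7 was thus lower against Grm4 in IP by 1.44 log2 units, without overlap. Grm8 minus Grm4 was -1.33, -1.45 and -1.33 in IP and -0.72, -0.25 and 0.02 in unbound RNA, a shift of -1.05, again without overlap. Both gave p = 0.1 in an exact two-sided permutation test, the smallest that 3 against 3 arrays allow, and 0.15 after Benjamini-Hochberg adjustment over 3 pairs of genes. That test exchanges arrays freely, and exact sign flips over the 3 same-numbered pairs, added after seeing the data, gave 0.25 for both, the smallest they allow. Grm8 minus Grm7 shifted by 0.39 with overlapping groups (exact permutation p = 0.6, adjusted 0.6), and by -0.01 without unbound replicate 1. With each gene read by the mean of its probe sets, it shifted by 0.84 and Grm7 minus Grm4 by -1.89. Both then gave an unadjusted exact permutation p = 0.1, but that mean includes the dim Grm7 probe sets. Grm3 minus Grm2 was not compared, since both were below the limit in IP.

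The sign of the smaller changes depended on the scaling between groups. Grm5 was called lower under all 7 scalings tried. Grm2 and Grm3 were too, but under the biotin scaling the filter fixed their direction, and the bound for Grm2 was 1.83-fold. Grm2 stayed far under the limit in IP under every other scaling by a constant shift, so its direction was fixed there as well. Grm3 was likewise under the limit in IP unscaled and under the poly-A controls. Their calls under those scalings are thus no separate support for their direction. The share of all tested genes called lower was 41.1% under the biotin scaling, 41.2% with each array's own biotin controls, 35.2% unscaled, 23.5% after quantile normalisation, 24.0% under the median of expressed probe sets and 20.3% under the median of all probe sets. Grm4 was called higher under 3 of them, at 1.58 with arrays centred on the median of all probe sets, 1.36 on the median of expressed ones and 1.58 after quantile normalisation, which called 33.5%, 27.2% and 23.9% of all tested genes higher. Gabbr1 was called higher under both median scalings, at 1.51 and 1.29, and was at 0.31 after quantile normalisation. Grm7 became positive only under the median of all probe sets, at 0.14, and Grm8 turned positive under both median scalings and quantile normalisation, at 0.52, 0.30 and 0.74. Under the poly-A spike controls, which move the median of all tested genes to -3.37 and call 97.1% of them lower, all 7 receptors were called lower.

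**Figure D2:**
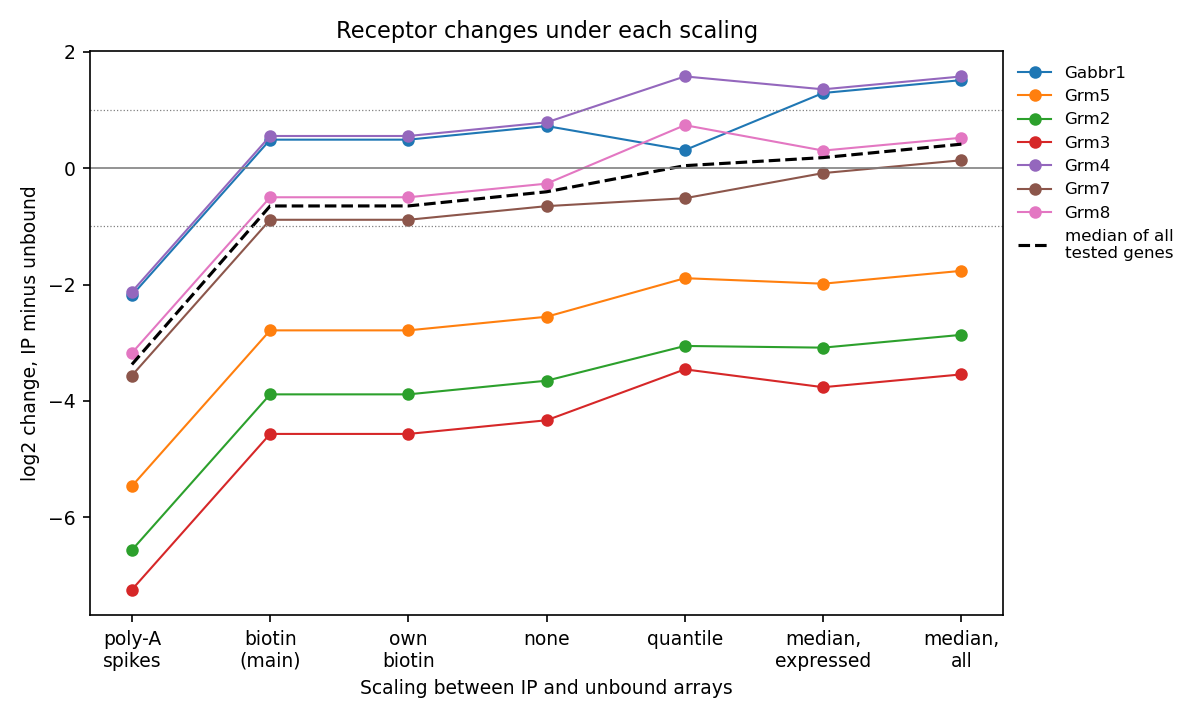
Log2 change of each receptor gene, IP minus unbound (y axis), under 7 scalings between the groups (x axis), with lines joining the values of 1 gene, the median of all tested genes dashed, and dotted lines at 2-fold. Grm3 and Grm2 (fitted values, below the limit in IP) and Grm5 stay far under the dashed line throughout, while Gabbr1 and Grm4 stay above it.

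Set against the median of all tested genes under each scaling, each receptor varied less from scaling to scaling. Every scaling but quantile normalisation shifts whole arrays by a constant, which nearly cancels in this reading. The smaller variation thus follows largely by arithmetic. Gabbr1 lay 0.27 to 1.19 above that median, with its lowest value under quantile normalisation, and Grm4 lay 1.16 to 1.53 above it. Grm8 lay 0.11 to 0.70 above it. Grm7 lay between -0.56 and -0.19 beside it and Grm5 between -2.18 and -1.93. Grm2 and Grm3 have only bounds in IP and no order is read between them.

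Genes that work with these receptors were read from 7 lists. Each list's calls stand beside the 41.1% of all tested genes that fell and the 10.4% that rose. Nothing particular to a list is read from them. The share of all tested genes at an unadjusted p under 0.05 was not counted. Counts at that threshold, here and for the receptors, thus have no background to be read against. Of the other class C receptors, Gprc5b, an orphan receptor, was the single gene tested of 8 on the array, and it fell from a mean of 10.63 to 7.11 (-3.51; limma, adjusted p = 7.45e-05). The other 7, among them the orphan Gpr158, were below the limit in both groups.

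Scaffolds and binding partners of metabotropic glutamate receptors were lower in 6 of 11 tested genes and higher in none by limma, with 3 positive and 8 negative at an unadjusted p under 0.05 and a median of -1.28 (-0.68 with Homer3 at its bound). The Homer proteins tie group I receptors to the postsynaptic scaffold. Homer2 read 7.23, 7.33 and 7.63 in IP and 10.01, 9.47 and 9.62 in unbound RNA and fell by 2.31, and Homer3, under the limit on all IP arrays and so fixed in direction by the filter, was at least 1.50-fold lower. Elfn1, a postsynaptic adhesion protein that recruits group III receptors across the synapse, was called lower from 6.90, 6.77 and 6.64 in unbound RNA, with IP replicates 1 and 3 at 4.54, under the limit, and replicate 2 at the limit, and the call was lost after quantile normalisation. Grip1, a PDZ-domain scaffold, fell by 1.40. Pick1, Grip2 and Cyth2, chosen after their values were seen, had positive changes of 0.28, 0.65 and 0.92 that were not called and turned negative under the poly-A scaling. These 3 were called higher, and 3 genes lower, under each median scaling. The median of all probe sets called 33.5% of all tested genes higher and 20.3% lower, that of expressed ones 27.2% and 24.0%. After quantile normalisation the same 3 were called higher and 1 gene lower, beside 23.9% and 23.5% of all tested genes. Cyth2 was also called higher unscaled, as were 1500 of 10640 tested genes. Under the biotin scaling the remaining uncalled genes of the list were Ncdn and Siah1a, at -0.66 and -0.68.

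Of 7 tested effectors of Gq signalling, 4 fell and none rose by limma (0 positive and 5 negative at an unadjusted p under 0.05), with a median of -1.29. Plcb1, a phospholipase C, read 8.53, 8.72 and 8.38 in IP and 10.70, 10.91 and 11.15 in unbound RNA and fell by 2.38. Protein kinase C alpha, Prkca, fell by 1.44, the G-protein subunit gene Gnaq fell by 1.36 and Plcb4 fell by 1.29. Under both median scalings Plcb1 alone of the 4 was called, so the calls of the other 3 rest on the scaling. Plcb1 was called lower under all 7 scalings, as were Gprc5b, Homer2, Kctd8, Slc1a2 and Slc1a3 of the other lists.

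Of the GABA-B auxiliary subunits and extracellular partners, 1 of 5 tested genes rose and 2 fell, near the shares among all tested genes, with a median of -0.04. Ajap1, a membrane protein that binds the extracellular part of Gabbr1, read 11.05, 11.16 and 11.16 in IP and 9.78, 9.56 and 9.56 in unbound RNA. It rose by 1.50 (limma, adjusted p = 2.12e-05), without overlap and under each scaling but the poly-A one, where it was called lower. The cytosolic auxiliary subunit gene Kctd8 read 6.11, 5.71 and 6.11 in IP and 8.49, 7.84 and 8.15 in unbound RNA and fell by 2.18. Kctd12b, with its direction fixed by the filter in the same way, was at least 1.37-fold lower, and the dim Kctd16 was below the limit in both groups.

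Among Gi/o proteins and GIRK channel subunits, the effectors that GABA-B and group II and III receptors share, 2 of 7 tested genes fell and none rose by limma, with 2 positive and 2 negative at an unadjusted p under 0.05. The list median was 0.19, and it ranged from -2.49 under the poly-A scaling to 1.21 under the median of all probe sets. The GIRK subunit gene Kcnj3 fell by 1.83, from 10.53, 9.32 and 9.33 in unbound RNA to 8.06, 7.82 and 7.82 in IP, and Gnai3 fell by 1.56. Neither overlapped between groups. Gnai2 and Gnao1, named after their values were seen, had changes of 0.91 and 0.34 that were not called. Gnai2 was called higher unscaled, after quantile normalisation and under both median scalings, Gnao1 under both median scalings, and both were called lower under the poly-A scaling. Under the biotin scaling the remaining uncalled genes of the list were Gnaz at 0.39, Kcnj9 at 0.19 and Gnai1 at -0.16.

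Receptor kinases and arrestins, which desensitise such receptors, fell in 3 of 5 tested genes, with none higher by limma and 1 positive and 3 negative at an unadjusted p under 0.05 (median -1.35). Grk5, below the limit on all 3 IP arrays so that the filter fixed its direction, was at least 3.06-fold lower, a call lost after quantile normalisation; the arrestin gene Arrb1 fell by 1.67 and Grk3 fell by 1.35. Genes that clear glutamate and GABA fell in 5 of 6 tested cases, with none higher and 0 positive and 6 negative at an unadjusted p under 0.05 (limma, median -2.10, and -1.39 with the dim genes at their bounds). The transporter genes Slc6a11 and Slc1a3 were at least 1.35-fold and 5.63-fold lower, in a direction that the filter fixed, since both lay under the limit in all IP samples. Slc1a2 fell by 3.19 and Slc1a1 fell by 1.62. Slc1a2, Slc1a3 and Slc6a11 are known from astrocytes. The falls of Grip1, Gnai3, Grk3, Arrb1 and Slc1a1, like those of Gnaq, Plcb4 and Prkca, kept their sign but were not called under either median scaling, and that of Kcnj3 was not called under the median of all probe sets. After quantile normalisation Grip1, Prkca, Gnai3, Grk3 and Arrb1 were not called either.

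**Figure D3:**
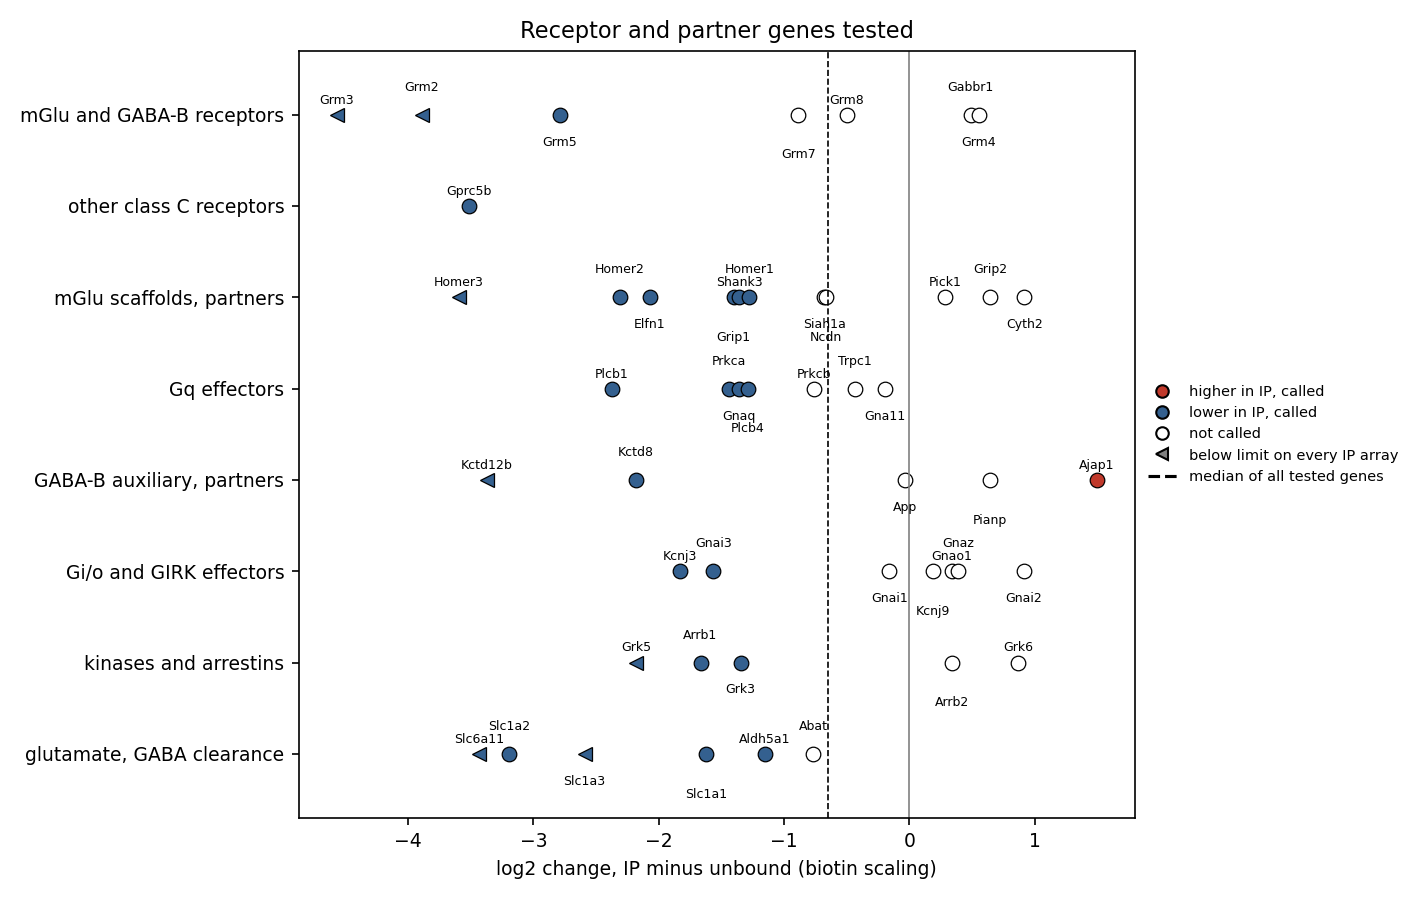
Log2 change, IP minus unbound (x axis), of each tested receptor and partner gene by list (y axis), filled red where called higher, filled blue where called lower and open where not called. Triangles mark genes whose 3 IP values are all under the limit, and the dashed line is the median of all tested genes, -0.65. Ajap1 is the single gene called higher, and the receptors spread from a fitted -4.57 for Grm3 to 0.55 for Grm4.

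Markers of other cells were read from the same fit, in which 41.1% of all tested genes fell and 10.4% rose. All 10 astrocyte markers fell, 5 of them under the limit on every IP array (Slc1a3, Aldh1l1, Sox9, Fgfr3 and Acsbg1), and the median of the list was 5.53 to 5.55 on the IP arrays and 9.30 to 9.70 on the unbound arrays. All 9 measured oligodendrocyte markers fell, with list medians up to 7.14 on the IP arrays and from 10.06 on the unbound ones. All 3 oligodendrocyte precursor markers were under the limit on every IP array. Markers of GABAergic and glycinergic neurons fell in 4 of 4 cases, with list medians up to 8.47 on the IP arrays and from 10.59 on the unbound ones, and the glutamatergic marker Slc17a6 fell by 3.47. The catecholaminergic markers fell in 4 of 4 cases. The part of these cells in the lower values of Grm2, Grm3 and Grm5 was not tested. Of the microglial markers 4 of 5 tested fell. Aif1 rose at least 1.66-fold from unbound values that all lay under the limit, so the filter fixed its direction. The 3 tested endothelial markers fell. All 3 of those and 2 of the 5 tested microglial markers were under the limit in all IP samples, so the filter fixed their direction too. It did so also for the 5 astrocyte and 3 precursor markers above and for 2 markers each of oligodendrocytes and catecholaminergic neurons.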

How the data were processed

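RNA from 3 IP and 3 unbound samples, biological replicates per the labels, was measured on Affymetrix arrays. The deposited log2 values were made by the authors with GCRMA within each group, per the submitters' processing notes and the design text, with no version named in the sources used. The log2 scale was read from the values. GCRMA left the same value on all 3 arrays of a group for 15.0% of IP and 0.453% of unbound single-symbol probe sets averaging at least 5, so IP spread is understated for those. Following the design text, IP arrays were shifted by -0.23, from 18 biotinylated control probe sets. Symbols came from the platform annotation (34945 probe sets with 1 symbol, 932 with several, 9160 with none), and 34741 Entrez IDs matched RefSeq, changing 0 symbols. Each gene was read by its brightest probe set and tested where at least 3 of 6 arrays reached 5, with limma 3.58.1 in R 4.3.3 on group alone, two-sided, Benjamini-Hochberg adjusted, and checked on simulated data. The simulation planted large changes in bright genes, without a floor or identical values. It therefore does not bear on dim genes, small changes or genes with identical values. A fold of "at least" counts each dim array at no less than 5. Deviations of same-numbered IP and unbound samples from their group means correlated at 0.27, 0.16 and 0.10. Each was over the bound of 0.1, the third barely. IP replicate 3 correlated more with unbound replicate 2, at 0.21, than with unbound replicate 3. The correlations alone thus do not settle the pairing, and the numbers count as pairing the samples by the unbound labels' wording. The main fit leaves the pairing out, and the block alternative uses it. The receptor genes, lists and alternatives were chosen with earlier results of these data known. Partner genes are named by rule: up to 4 called members of a list with the largest change, or the 2 brightest where fewer were called. The uncalled and untested partner genes named in the text stand outside that rule.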

Additional observations from a re-analysis of the deposited data

How the results depend on the processing

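Under the median of all probe sets, the median of expressed probe sets, quantile normalisation and the poly-A controls, 3653, 2942, 2514 and 35 genes were higher and 2212, 2592, 2473 and 9992 lower, against 1104 and 4354 under the biotin scaling, where 79.8% of calls were lower (71.4% unscaled, then 37.7%, 46.8%, 49.6% and 99.7% in that order). Receptors called higher then numbered 2, 2, 1 and 0, and 7 were called lower under the poly-A controls. Grm4 turned to -2.12 and Gabbr1 to -2.19 under the poly-A controls, Grm7 to 0.14 under the median of all probe sets, and Grm8 to 0.52, 0.30 and 0.74 under the 2 medians and quantile normalisation. The cause of these shifts is the scaling itself. With every probe set tested by itself, 1748 were higher and 7233 lower, 1 and 5 of them receptor probe sets. Leaving out genes with identical values on all arrays of a group left 1 receptor called lower, since Grm2 and Grm5 were then not tested. Grm8, which was not called in the main fit, was not tested there either. Leaving out 1 array gave 1094 to 1130 higher and 4295 to 4520 lower genes, 0 receptors higher and 3 to 4 lower, with the filter at 2 arrays where 1 group was left with 2. The within-array differences then ran from -1.60 to -1.24 (Grm7 minus Grm4), -1.26 to -0.89 (Grm8 minus Grm4) and -0.011 to 0.59 (Grm8 minus Grm7, the former without unbound replicate 1). With replicate pairs as a block, 1108 genes were higher and 4360 lower and the same 3 receptors were called. Grm2 and Grm8 could not be tested with the filter at 7. Values near the floor limit Grm2, Grm3 and the dim Grm7 probe sets to bounds.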
